A study of Mus musculus with 8 samples.

Results

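The replication-dependent histone genes encode the linker histone H1 and the core histones H2A, H2B, H3 and H4 that package newly made DNA. They were taken as every gene whose symbol in the deposited count table starts with Hist1h, Hist2h, Hist3h or Hist4h, or has the newer form of those names. This gave 64 of 21240 genes, all under the older symbols, with 52 in the Hist1 cluster, 8 in Hist2, 3 in Hist3 and 1 in Hist4. RNA sequencing was done on NMuMG cells, a non-transformed epithelial line from mouse mammary gland, labelled as wild type and grown in medium with serum and insulin. Cells received the solvent DMSO or BRM014, an inhibitor of the ATPase subunits BRG1 and BRM of the SWI/SNF chromatin remodelling complex, for 6 h or 30 h. Each of the 4 groups had 2 libraries, labelled as biological replicates with no word on separate cultures, so p-values measure only the spread between these libraries. All groups are 1 cell line under 1 inhibitor, whose dose is not given in the labels.

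Replication-dependent histone genes are mostly short and without introns, and lie in clusters. Their messenger RNAs end in a stem-loop in place of a poly(A) tail, bound by the protein SLBP, and they are made and kept mainly during S phase, when the factor NPAT, a target of cyclin E and CDK2, drives their transcription. Some members, among them Hist1h1c, Hist1h2bc and Hist2h2be, are also known to give polyadenylated transcripts outside S phase. The libraries were made with a stranded total RNA kit, and no selection for poly(A) tails is named in the labels.

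Promoters of these genes carry short elements that differ between histone classes, and 5 are shown. Hist1h1c, Hist1h4i, Hist1h2ac and Hist1h2bg carry calls below, and Hist1h1d gives a second H1 promoter to set beside Hist1h1c. Hist1h2bc and Hist1h1a also carry calls, but their promoters are not shown. The sequences are RefSeq windows on GRCm38.p6 from 250 bases before to 50 bases after the start of the gene, 5′ to 3′ on the gene's own strand, all on chromosome 13. Capitals mark letters that were searched on both strands. The CCAAT box, bound by NF-Y in many promoters, was searched by those letters, and the TATA box, where the general machinery binds, as TATAAA. The octamer bound by OCT1 in H2B promoters was searched as ATTTGCAT. The H1 box of linker histone promoters was searched as AAACACA. For the H4 element the core searched was GGTCCG. No searched motif contains another. Hist1h1c, at chr13:23738557-23738856 on the plus strand, has the H1 box and a CCAAT box.
Hist1h1c: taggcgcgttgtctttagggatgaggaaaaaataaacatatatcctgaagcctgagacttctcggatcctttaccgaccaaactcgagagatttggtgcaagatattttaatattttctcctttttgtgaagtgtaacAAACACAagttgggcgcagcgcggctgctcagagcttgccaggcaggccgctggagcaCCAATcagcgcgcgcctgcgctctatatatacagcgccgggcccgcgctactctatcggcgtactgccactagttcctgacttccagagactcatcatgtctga
Hist1h1d, at chr13:23554782-23555081 on the plus strand, has the same pair of elements at a similar distance and TATA letters.
Hist1h1d: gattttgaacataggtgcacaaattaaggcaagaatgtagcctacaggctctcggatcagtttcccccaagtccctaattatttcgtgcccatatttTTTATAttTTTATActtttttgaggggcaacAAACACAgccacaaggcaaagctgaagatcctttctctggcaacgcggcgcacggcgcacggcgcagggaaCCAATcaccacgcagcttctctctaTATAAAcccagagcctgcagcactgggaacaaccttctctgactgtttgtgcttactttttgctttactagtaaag
Hist1h4i, at chr13:22041313-22041612 on the minus strand, has the H4 element core and no CCAAT letters.
Hist1h4i: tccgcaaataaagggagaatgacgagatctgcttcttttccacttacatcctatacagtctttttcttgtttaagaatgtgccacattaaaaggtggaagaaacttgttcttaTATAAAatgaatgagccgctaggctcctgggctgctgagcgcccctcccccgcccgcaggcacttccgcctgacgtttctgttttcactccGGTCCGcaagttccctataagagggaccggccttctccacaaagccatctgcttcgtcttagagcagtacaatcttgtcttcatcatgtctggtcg
Hist1h2ac, at chr13:23683910-23684209 on the minus strand, encodes an H2A protein and has CCAAT, TATA and octamer letters.
Hist1h2ac: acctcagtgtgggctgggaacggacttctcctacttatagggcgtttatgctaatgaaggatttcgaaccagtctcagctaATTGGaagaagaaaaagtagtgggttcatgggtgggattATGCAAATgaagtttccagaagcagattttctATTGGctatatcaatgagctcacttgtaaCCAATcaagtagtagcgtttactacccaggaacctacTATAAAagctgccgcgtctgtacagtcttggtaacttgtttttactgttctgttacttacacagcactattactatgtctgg
Hist1h2bg, at chr13:23571150-23571449 on the plus strand, encodes an H2B protein and has the same 3 kinds of letters.
Hist1h2bg: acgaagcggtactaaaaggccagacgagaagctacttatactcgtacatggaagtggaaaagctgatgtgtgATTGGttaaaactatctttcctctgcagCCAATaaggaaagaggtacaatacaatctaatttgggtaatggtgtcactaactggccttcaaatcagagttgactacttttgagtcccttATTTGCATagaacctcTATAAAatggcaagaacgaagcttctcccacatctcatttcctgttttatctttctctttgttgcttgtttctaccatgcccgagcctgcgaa

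In these windows the H1 box starts 112 bases before the start of Hist1h1c and 122 before that of Hist1h1d, and the H4 element core of Hist1h4i starts 46 bases before its start. The octamer of Hist1h2bg lies 59 bases before its start on the gene's strand, and that of Hist1h2ac begins 130 bases before its start on the opposite strand. Of the 64 members, 58 had a window in the RefSeq table, which gave 59 windows among 32851 in all. CCAAT letters were in 84.7% of the member windows and in 37.4% of all windows. All 6 H1, 15 H2A, 17 H2B and 9 H3 windows held them, against 3 of 12 H4 windows. The TATA letters were in 57.6% of the member windows and 13.6% of all windows. The octamer was in 7 of 15 H2A and 7 of 17 H2B windows, in none of the H1, H3 or H4 windows, and in 1.74% of all windows. The H1 box was in 5 of 6 H1 windows against 7.18% of all windows, and the H4 element core in 11 of 12 H4 windows against 8.25%. The windows are not independent, since 8 pairs of H2A and H2B genes lie head to head and share 220 to 279 bases of their windows. A match describes letters and was not tested as a binding site.

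The members made up a small part of each library, from 0.00516% to 0.0167% of its counts. Library totals ran from 17859693 to 29955366 counts, and 44 to 55 of the 64 members had at least 1 count in a library. Hist1h1c alone held 60.8% of all member counts, and Hist1h1c, Hist1h2bc, Hist2h2be and Hist1h4i together held 86.7%. Of the 64 members, 55 had under 100 counts over the 8 libraries. CPM is the count scaled to the library's effective total, its total adjusted by a TMM factor, and in the filter to its plain total. Testing was limited to genes with about 0.488 CPM or more in at least 2 libraries, which 14 members passed. These were 4 of 6 H1 genes, 2 of 15 H2A, 5 of 19 H2B, 2 of 11 H3 and 1 of 13 H4 genes. The 50 members that were not tested had 0 to 57 counts in all, with a median of 15, and held 4.95% of the member counts. Just inside the limit were Hist2h3c2 with 43 counts and Hist1h2br and Hist1h1a with 61 each, and just outside were Hist1h3d with 57 and Hist1h2bh with 49. Hist1h2ba and Hist1h2aa had no count in any library, and a count of 0 allows up to 3 counts over the 8 libraries, a limit that covers counting error only.

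Reads were 50 bases long, and histone genes of a class are near-identical copies, so reads can be shared between members. In the GENCODE M21 gene models, which belong to another build than the authors' mm9 alignment, 63 members had transcripts. Only the longest transcript of each member was used, so a shorter transcript of the same gene can be less unique than the share given. Of the 63, 30 had fewer than 50% of their 50-base windows found in no other gene, 3 of them among the 14 tested. The median share was 70.2% in the tested members and 42.0% in the 49 others. Hist2h2be and Hist1h1a were unique throughout, Hist1h1d at 97.7%, Hist1h1c at 91.5%, Hist1h2ac at 85.9% and Hist1h2be at 82.1%. Hist1h4i had 71.1%, Hist1h2bc 69.4%, Hist3h2a 68.5%, Hist1h1e 68% and Hist1h2bg 50.3%. Hist1h3g at 45.9%, Hist2h3c2 at 36.5% and Hist1h2br at 11.5% are uncertain, since reads from copies could have been dropped or split in the counting. Hist2h2aa1, Hist2h2bb and Hist2h3b had no unique window, so their counts cannot be assigned to single genes.

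**Figure D1:**
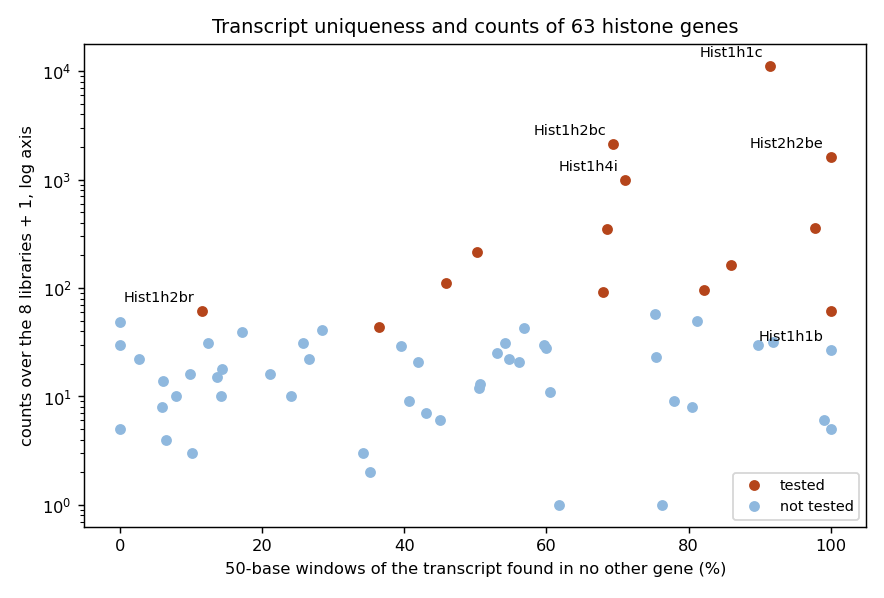
Each point is 1 of 63 histone genes. The x axis gives the percent of 50-base windows of its longest transcript found in no other gene. The y axis gives its counts over 8 libraries plus 1 (log scale). Apart from Hist2h3c2, each tested gene has more counts than every untested one, and 27 of the 49 untested genes, but 3 of the 14 tested ones, lie under 50%.

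After 6 h of BRM014, 4 tested members were lower than in DMSO and 0 were higher. The 4 were the linker histone gene Hist1h1c, the H2B gene Hist1h2bc, the H4 gene Hist1h4i and the linker histone gene Hist1h1a. Hist1h1a reached the filter's 0.488 CPM only in DMSO libraries, with 0.0426 to 0.268 CPM in the BRM014 libraries. It was thus tested only through the groups where it was high, and its call carries little weight. Among all 11835 tested genes, 14.4% were called lower and 9.35% higher in this comparison. Calls rest on edgeR's quasi-likelihood test with Benjamini-Hochberg adjustment over all tested genes at 0.05, two-sided. No tested member was higher at an unadjusted p under 0.05 either, nor with DESeq2 or limma-voom.

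At 30 h, 2 of the 14 tested members were called higher and 1 lower. The H2B gene Hist1h2bg and the H2A gene Hist1h2ac were higher in BRM014 than in DMSO, Hist1h4i was lower, and the other 11 tested members, Hist1h1c and Hist1h2bc among them, did not pass. In all tested genes 16.8% were called higher and 19.1% lower at 30 h. The 2 higher and 1 lower of 14 members are not above these shares. DESeq2 called 0 of the 14 members at 30 h, where edgeR counted 2 higher and 2 lower at an unadjusted p under 0.05 and limma-voom called 2 higher and 0 lower. The difference between the 30 h and the 6 h effects was itself called for Hist1h1c and Hist1h2bc, both higher at 30 h, beside 3.89% of all genes called higher and 2.59% lower for that difference. No member had a lower effect at 30 h than at 6 h at an unadjusted p under 0.05, nor with DESeq2 or limma-voom. The scaling bears on the share of lower genes among all calls, which was 60.7% at 6 h and 45.1% with library totals in place of TMM factors. At 30 h it was 53.2%, and 42.3% with scaling on ribosomal protein genes. For the difference it was 39.9%, and 27.0% with ribosomal protein scaling.

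**Figure D2:**
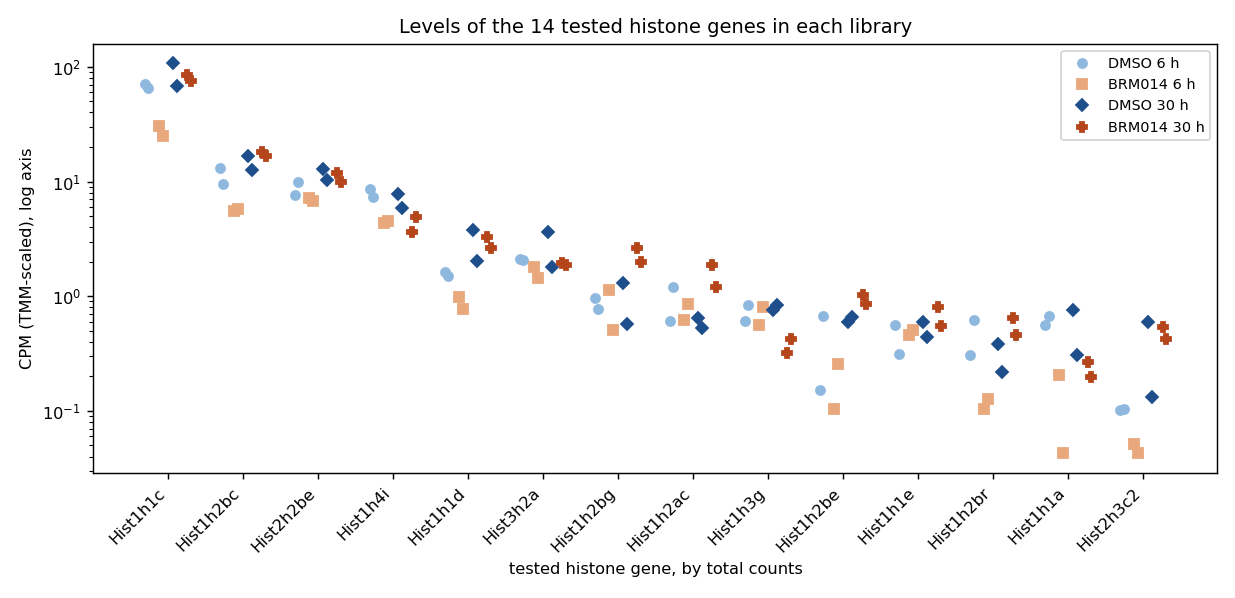
CPM in each of the 8 libraries (y axis, log scale) for the 14 tested histone genes (x axis, ordered by total counts), with 1 point per library and a symbol for each group. For Hist1h1c, both BRM014 6 h libraries lie below the other 6, and for Hist1h2bg and Hist1h2ac both BRM014 30 h libraries lie above the other 6.

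Hist1h1c encodes histone H1.2, a linker histone that binds DNA between nucleosomes and is the most abundant member by counts. Its level in DMSO at 6 h was 70.7 and 64.8 CPM, and with BRM014 it was 30.3 and 24.7 CPM. The 30 h levels were 107 and 68.0 CPM in DMSO and 84.4 and 74.7 CPM with BRM014. The 6 h groups were far apart, whereas at 30 h both BRM014 libraries lay between the DMSO libraries. The 6 h log2 fold change was -1.30 ± 0.18 (SE), a 2.47-fold lower level (edgeR adjusted p = 0.00016). It kept its call under all 17 alternatives of processing or left-out libraries. At 30 h the log2 fold change was -0.14 ± 0.17 (edgeR adjusted p = 0.56), and without DMSO 30 h replicate 2 it was called lower, at -0.43 (edgeR adjusted p = 0.0247). The difference between the times was 1.16 ± 0.25 on the log2 scale (edgeR adjusted p = 0.0127). That call was lost without DMSO 6 h replicate 1 (1.11 at an edgeR adjusted p of 0.0688), without BRM014 6 h replicate 2 (0.99 at an adjusted p of 0.0964) and without BRM014 30 h replicate 1 (1.05 at an adjusted p of 0.0562).

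The other linker histone genes were much lower. Hist1h1d, which encodes H1.3, was at 1.63 and 1.51 CPM in DMSO and 0.975 and 0.767 CPM with BRM014 at 6 h. At 30 h it was at 3.75 and 2.01 CPM in DMSO and 3.26 and 2.61 CPM with BRM014. The 6 h groups did not overlap and the 30 h groups did, and neither comparison passed, with log2 fold changes of -0.85 ± 0.40 (edgeR adjusted p = 0.149) and 0.03 ± 0.32 (adjusted p = 0.952). Hist1h1a, which encodes H1.1, had 11 and 13 counts in DMSO and 4 and 1 counts with BRM014 at 6 h, and 14 and 7 against 5 and 6 counts at 30 h. Its BRM014 libraries were below their DMSO libraries at both times, on few counts. The 6 h log2 fold change was -2.34 ± 0.78 (edgeR adjusted p = 0.0446). Without BRM014 6 h replicate 2 it was -1.53 (edgeR adjusted p = 0.306), and without BRM014 6 h replicate 1 it was -3.67 (adjusted p = 0.0512). The call was also lost without DMSO 6 h replicate 1 (at an edgeR adjusted p of 0.109), DMSO 6 h replicate 2 (at an adjusted p of 0.156), BRM014 30 h replicate 1 (at an adjusted p of 0.0597) or BRM014 30 h replicate 2 (at an adjusted p of 0.0574). DESeq2 gave an adjusted p of 0.121, and edgeR gave 0.064 with ribosomal protein scaling and 0.05, just over the threshold, with library totals. At 30 h the log2 fold change of Hist1h1a was -1.18 ± 0.69 (edgeR adjusted p = 0.201). Hist1h1e, which encodes H1.4, had 6 to 17 counts per library, with log2 fold changes of 0.16 ± 0.55 at 6 h (edgeR adjusted p = 0.87) and 0.36 ± 0.50 at 30 h (adjusted p = 0.607). Hist1h1b, which encodes H1.5, was not tested and had 26 counts in all, although its transcript windows were all unique.

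Among the H2B genes, which encode a core histone that pairs with H2A, Hist1h2bc had the highest level. It was at 13.2 and 9.46 CPM in DMSO and at 5.59 and 5.80 CPM with BRM014 at 6 h. The 30 h libraries gave 16.6 and 12.6 CPM in DMSO and 18.2 and 16.7 CPM with BRM014. Both BRM014 libraries were thus lower than DMSO at 6 h, while at 30 h the groups nearly met, at 16.7 CPM with BRM014 and 16.6 CPM in DMSO. The log2 fold change was -0.99 ± 0.20 at 6 h (edgeR adjusted p = 0.00321) and 0.26 ± 0.19 at 30 h (adjusted p = 0.302), with a difference of 1.25 ± 0.28 (adjusted p = 0.0161). The 6 h call was lost without DMSO 6 h replicate 1 (-0.73 at an edgeR adjusted p of 0.0508). The call of the difference was lost without DMSO 6 h replicate 1 (1.00 at an edgeR adjusted p of 0.0895), BRM014 6 h replicate 1 (1.20 at an adjusted p of 0.0781), BRM014 6 h replicate 2 (1.25 at an adjusted p of 0.0785) or BRM014 30 h replicate 1 (1.17 at an adjusted p of 0.0528).

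Hist2h2be, an H2B gene of the Hist2 cluster, was at 7.57 and 9.93 CPM in DMSO and 7.13 and 6.78 CPM with BRM014 at 6 h. Its 30 h levels were 12.8 and 10.3 CPM in DMSO and 11.9 and 9.87 CPM with BRM014. It did not pass at either time, with log2 fold changes of -0.33 ± 0.20 (edgeR adjusted p = 0.262) and -0.09 ± 0.19 (adjusted p = 0.746). Hist1h2bg had 19 and 15 counts in DMSO and 22 and 12 with BRM014 at 6 h, and 24 and 13 against 49 and 61 counts at 30 h. The 6 h groups overlapped, and the 30 h groups were apart. Its log2 fold change was -0.12 ± 0.51 at 6 h (edgeR adjusted p = 0.896) and 1.31 ± 0.44 at 30 h (adjusted p = 0.0321, 2.49-fold). The difference between these effects, 1.44 ± 0.68, did not pass (edgeR adjusted p = 0.26). The 30 h call was lost without DMSO 30 h replicate 2 (0.80 at an edgeR adjusted p of 0.233), BRM014 30 h replicate 1 (1.12 at an adjusted p of 0.131) or BRM014 30 h replicate 2 (1.52 at an adjusted p of 0.0591), and DESeq2 gave 0.0731. Hist1h2be had 3 and 13 counts in DMSO and 2 and 6 with BRM014 at 6 h, and 11 and 15 against 19 and 26 at 30 h. Its log2 fold changes of -1.13 ± 0.78 (edgeR adjusted p = 0.334) and 0.55 ± 0.53 (adjusted p = 0.457) did not pass. Hist1h2br had 6 and 12 counts against 2 and 3 at 6 h, and 7 and 5 against 12 and 14 at 30 h. Its log2 fold changes of -1.94 ± 0.76 (edgeR adjusted p = 0.0827) and 0.86 ± 0.60 (adjusted p = 0.294), and their difference of 2.80 ± 0.97 (adjusted p = 0.113), did not pass, and few of its windows are unique.

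The H2A genes were low. Hist1h2ac had 12 and 23 counts in DMSO and 12 and 20 with BRM014 at 6 h, and 12 and 12 against 35 and 37 counts at 30 h. Only the 30 h groups stood apart. The log2 fold change was -0.28 ± 0.48 at 6 h (edgeR adjusted p = 0.726) and 1.36 ± 0.46 at 30 h (adjusted p = 0.0331, 2.56-fold), and their difference, 1.63 ± 0.66, did not pass (adjusted p = 0.179). The 30 h call was lost without DMSO 30 h replicate 1 (1.51 at an edgeR adjusted p of 0.0646), DMSO 30 h replicate 2 (1.19 at an adjusted p of 0.142) or BRM014 30 h replicate 1 (1.05 at an adjusted p of 0.157), and DESeq2 gave 0.0887. Hist3h2a, an H2A gene of the Hist3 cluster, was at 2.13 and 2.08 CPM in DMSO and 1.80 and 1.45 CPM with BRM014 at 6 h, and at 3.64 and 1.79 against 1.93 and 1.86 CPM at 30 h. Neither its 6 h value, -0.38 ± 0.36 (edgeR adjusted p = 0.495), nor its 30 h value, -0.50 ± 0.34 (adjusted p = 0.273), passed.

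The H4 class rested on Hist1h4i, which held most of its counts. Hist1h4i was at 8.54 and 7.33 CPM in DMSO and 4.31 and 4.52 CPM with BRM014 at 6 h. At 30 h it was at 7.77 and 5.82 CPM in DMSO and 3.64 and 4.95 CPM with BRM014. Groups did not overlap at either time, and Hist1h4i was called lower at both, with log2 fold changes of -0.84 ± 0.23 (edgeR adjusted p = 0.0167) and -0.64 ± 0.23 (adjusted p = 0.0442). Their difference was 0.21 ± 0.32 (edgeR adjusted p = 0.772). The 6 h call was lost without DMSO 6 h replicate 1 (-0.73 at an edgeR adjusted p of 0.115), BRM014 6 h replicate 1 (-0.79 at an adjusted p of 0.109) or BRM014 6 h replicate 2 (-0.85 at an adjusted p of 0.107). The 30 h call held with RLE factors in place of TMM (edgeR adjusted p = 0.0462). It was lost with the other scalings and tools, at an adjusted p of 0.055 with library totals, 0.0871 with ribosomal protein scaling, 0.0668 with DESeq2, 0.0592 with limma-voom and 0.0869 with edgeR on the 30 h libraries alone. It was lost as well without DMSO 30 h replicate 1 (-0.41 at an edgeR adjusted p of 0.279), BRM014 30 h replicate 1 (-0.44 at an adjusted p of 0.219), DMSO 6 h replicate 1 (at an adjusted p of 0.0588), DMSO 6 h replicate 2 (at an adjusted p of 0.058), BRM014 6 h replicate 1 (at an adjusted p of 0.0655) or BRM014 6 h replicate 2 (at an adjusted p of 0.0657).

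The H3 genes had few counts. Hist1h3g had 12 and 16 counts in DMSO and 11 and 19 with BRM014 at 6 h, and 14 and 19 against 6 and 13 at 30 h. Its log2 fold changes were -0.05 ± 0.46 (edgeR adjusted p = 0.953) and -1.05 ± 0.48 (adjusted p = 0.106). Hist2h3c2 had 2 and 2 counts against 1 and 1 at 6 h, and 11 and 3 against 10 and 13 at 30 h. Its log2 fold changes were -1.05 ± 1.35 (edgeR adjusted p = 0.628) and 0.44 ± 0.66 (adjusted p = 0.64). Neither H3 gene passed at either time.

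**Figure D3:**
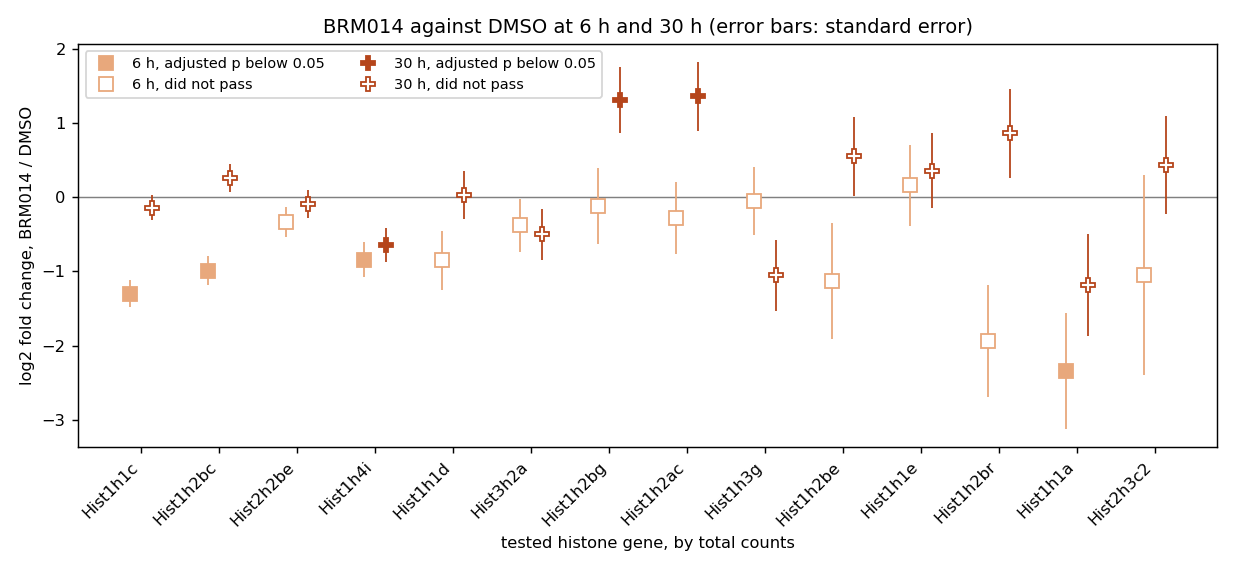
Log2 fold change of BRM014 against DMSO (y axis) for the 14 tested histone genes (x axis, ordered by total counts), squares for 6 h and crosses for 30 h, with bars of 1 standard error and filled symbols for an adjusted p below 0.05. Hist1h1c, Hist1h2bc, Hist1h4i and Hist1h1a are filled at 6 h, and Hist1h2bg, Hist1h2ac and Hist1h4i at 30 h.

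The summed CPM of all 64 members, including those not tested, was 112 and 105 in DMSO at 6 h and 57.5 and 51.3 with BRM014. At 30 h it was 164 and 110 in DMSO and 138 and 122 with BRM014. DMSO 30 h replicate 1 had the highest sum, and both BRM014 libraries at 30 h lay between the DMSO libraries. The means were 109 ± 5.29 CPM (SD, n = 2) in DMSO and 54.4 ± 4.38 CPM with BRM014 at 6 h, a log2 ratio of -1.0. At 30 h they were 137 ± 38.1 and 130 ± 11.4 CPM (SD, n = 2), a log2 ratio of -0.08, which turned to 0.25 without DMSO 30 h replicate 1. It was 0.01 when BRM014 30 h replicate 2 was dropped and 0.03 with ribosomal protein scaling. With BRM014 the sum was 1.26 higher on the log2 scale at 30 h than at 6 h, and with DMSO it was 0.34 higher. No test was made on sums.

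The 6 h ratio was not shared evenly. Without Hist1h1c the summed log2 ratio was -0.61 at 6 h and 0.03 at 30 h, and without the 4 members with most counts it was -0.39 and 0.11. Of the 4 members listed for polyadenylated transcripts 3 were tested, and Hist4h4, with 31 counts in all, was not. These 3 are also the members with most counts. Of them, 2 fell at 6 h (Hist1h1c and Hist1h2bc) and none passed at 30 h. Of all tested genes, 14.4% were lower at 6 h, and 19.1% were lower and 16.8% higher at 30 h. The 50 untested members summed to 4.78 and 4.57 CPM in DMSO and 4.11 and 4.14 CPM with BRM014 at 6 h, a log2 ratio of -0.18. Their 30 h sums were 6.74 and 6.08 against 6.74 and 5.31 CPM, a log2 ratio of -0.09. By class, the summed log2 ratio at 6 h was -1.28 for H1, -0.70 for H4, -0.62 for H2B, -0.38 for H2A and -0.25 for H3. At 30 h it was -0.61 for H4, -0.14 for H1, -0.13 for H3, 0.08 for H2A and 0.18 for H2B. The 6 h sums of the H1 class were 73.5 and 67.6 CPM in DMSO and 32.2 and 26.1 CPM with BRM014. Those of H2B were 23.3 and 23.0 against 15.3 and 14.9 CPM, and those of H4 10.2 and 8.47 against 5.59 and 5.84 CPM. The H2A sums, 3.30 and 4.16 CPM in DMSO and 3.13 and 2.60 CPM with BRM014, lay close. The H3 class overlapped at 6 h, with 2.03 and 1.61 CPM in DMSO and 1.23 and 1.83 CPM with BRM014. The 12 H4 genes other than Hist1h4i had a log2 ratio of -0.09 at 6 h, and the 5 H1 genes other than Hist1h1c -0.79.

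**Figure D4:**
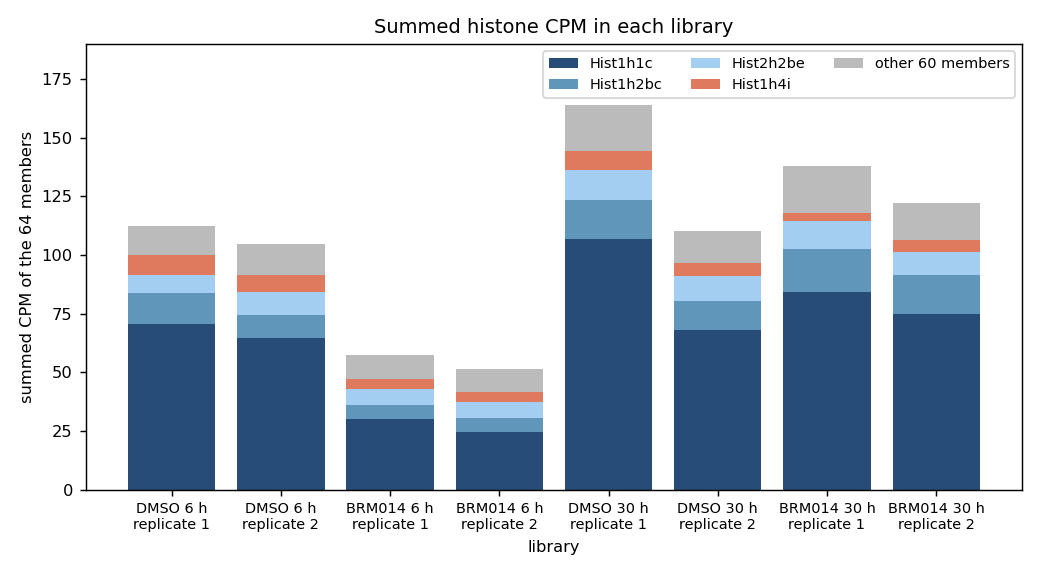
Summed CPM of the 64 histone genes in each of the 8 libraries (y axis, from 0), with stacked parts for Hist1h1c, Hist1h2bc, Hist2h2be, Hist1h4i and the other 60 members. Both BRM014 6 h bars, at 57.5 and 51.3, are the lowest, and DMSO 30 h replicate 1, at 164, is the highest.

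Between the DMSO groups, 0 of the 14 tested members were called at 30 h against 6 h with edgeR, while 18.0% of all tested genes were called higher and 17.2% lower. At an unadjusted p under 0.05, 1 member was higher and 0 were lower, and DESeq2 and limma-voom called 0. Hist1h1d had a log2 change of 0.86 ± 0.35 (edgeR adjusted p = 0.0719) and Hist1h1c of 0.37 ± 0.17 (adjusted p = 0.11). With replicate number as a block, or without DMSO 30 h replicate 2, both were called higher. Among all calls of this comparison 48.8% were lower, and 34.1% with library totals or 35.5% with ribosomal protein scaling.

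Per kilobase of GENCODE exon length, the leading members stood below 2 variant histone genes, H1f0 and H3f3b, that are not tied to DNA replication. These 2 were the highest of the 11 genes in the variant list. Hist1h1c had 42.1 CPM per kilobase over the 8 libraries, Hist1h2bc 10.6, Hist1h4i 8.06 and Hist2h2be 3.64. H1f0, the gene of the linker histone H1.0 of slowly dividing and differentiated cells, had 354 CPM per kilobase. H3f3b, one of the genes of the replication-independent histone H3.3, had 289 CPM per kilobase against 1.22 for Hist1h3g. Hist1h3g is 1 of 11 H3 members and had 45.9% unique windows. Any loss of its reads to near-identical copies was not tested. H2afx (53.8) and H2afj (48.3) were also above Hist1h1c. The rest of the variant list was below it, with H2afv (33.4) the highest of these. The other leading members were below every variant gene but H2afy2 (0.899) and H1fx (0.178). No selection for poly(A) tails is named in the labels, and any part of such selection in these levels was not tested. Of 10 tested genes of the variant list, 3 fell and 7 did not pass at 6 h, and 7 fell and 3 did not pass at 30 h, with median log2 changes of -0.20 and -0.49 against -0.01 and -0.00 for all tested genes, of which 14.4% and 19.1% were lower. H1f0 was at 666 and 740 CPM in DMSO and 381 and 352 CPM with BRM014 at 6 h, and at 1364 and 1228 against 570 and 512 CPM at 30 h. Its groups were apart at both times, with log2 fold changes of -0.94 ± 0.10 (edgeR adjusted p = 1.98e-05) and -1.26 ± 0.10 (adjusted p = 8.1e-07). H3f3b fell by 0.80 ± 0.14 on the log2 scale at 6 h (edgeR adjusted p = 0.000982) and by 0.89 ± 0.14 at 30 h (adjusted p = 0.000271). H2afx, the gene of H2AX, which marks DNA breaks when phosphorylated, had log2 fold changes of -0.64 ± 0.16 (edgeR adjusted p = 0.00974) and -0.48 ± 0.16 (adjusted p = 0.0304). Its 6 h call was lost without DMSO 6 h replicate 1 (-0.45 at an edgeR adjusted p of 0.128), BRM014 6 h replicate 1 (-0.66 at an adjusted p of 0.0555) or BRM014 6 h replicate 2 (-0.56 at an adjusted p of 0.113). Its 30 h call was lost with ribosomal protein scaling (edgeR adjusted p = 0.0627) and without DMSO 30 h replicate 1 (-0.18 at an adjusted p of 0.381), BRM014 30 h replicate 1 (-0.50 at an adjusted p of 0.0923) or BRM014 30 h replicate 2 (-0.45 at an adjusted p of 0.143). Both H1 genes, Hist1h1c and H1f0, were thus lower at 6 h, while at 30 h H1f0 was lower and Hist1h1c did not pass.

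Of 22 genes for the synthesis and 3′ processing of histone messenger RNA, 1 fell and 2 rose at 6 h, with a median log2 change of -0.08, beside 14.4% of all tested genes lower and 9.35% higher. The 30 h values had 5 genes lower, 1 higher and a median of -0.10, beside 19.1% of all genes lower and 16.8% higher, so the count of 5 is near that background. Lsm10, a subunit of the U7 particle that cuts the 3′ end of these messages, was at 10.1 and 10.1 CPM in DMSO and 15.5 and 15.9 CPM with BRM014 at 6 h, and at 14.5 and 13.6 against 21.6 and 19.4 CPM at 30 h. It was higher in both BRM014 groups, by 0.63 ± 0.14 (edgeR adjusted p = 0.0061) and 0.54 ± 0.14 (adjusted p = 0.00802) on the log2 scale. Ccne2, the gene of cyclin E2, fell by 0.51 ± 0.14 at 6 h (edgeR adjusted p = 0.02) and by 0.96 ± 0.15 at 30 h (adjusted p = 0.000244). Its 6 h call was lost with ribosomal protein scaling (edgeR adjusted p = 0.111) and without DMSO 6 h replicate 2 (-0.30 at an edgeR adjusted p of 0.219) or BRM014 6 h replicate 2 (-0.34 at an adjusted p of 0.256). Slbp and Npat, chosen after their values were seen, encode the stem-loop binding protein and the transcription factor named above. Slbp had a log2 change of -0.05 ± 0.09 at 6 h (edgeR adjusted p = 0.726) and fell by 0.44 ± 0.09 at 30 h (adjusted p = 0.0025), a difference that did not pass (adjusted p = 0.105). Npat did not pass at either time, with log2 changes of -0.09 and 0.04. The count of 5 that fell at 30 h was 2 to 5 under the 17 alternatives.

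Of 22 genes for histone chaperones and chromatin assembly, 1 fell and 21 did not pass at 6 h, and 10 fell at 30 h beside 2 that rose, with median log2 changes of -0.08 and -0.23, against 14.4% and 19.1% of all tested genes lower. Tonsl, which acts at damaged replication forks, had log2 changes of -0.40 ± 0.12 at 6 h (edgeR adjusted p = 0.0325) and -0.60 ± 0.13 at 30 h (adjusted p = 0.00237). Its 6 h call was lost with library totals (edgeR adjusted p = 0.0766) and ribosomal protein scaling (0.154). It was also lost without any 1 of the 6 h libraries, with an edgeR adjusted p of 0.0789 without DMSO replicate 1, 0.157 without DMSO replicate 2, 0.252 without BRM014 replicate 1 and 0.109 without BRM014 replicate 2. Nasp, a chaperone of H1 and H3 chosen after its values were seen, had a log2 change of -0.13 ± 0.09 at 6 h (edgeR adjusted p = 0.304) and fell by 0.71 ± 0.09 at 30 h (adjusted p = 3.64e-05).

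Of 30 genes of S phase and DNA replication, 10 fell and 20 did not pass at 6 h, and 25 fell and 5 did not pass at 30 h, with median log2 changes of -0.20 and -0.53, against 14.4% and 19.1% of all tested genes lower. The 6 h count was 3 to 11 under the alternatives, being 6 with library totals and 3 with ribosomal protein scaling, and it was 3 to 6 without any 1 of the 4 libraries at 6 h. In DMSO alone 20 of the 30 were lower at 30 h than at 6 h, with a median of -0.36. Of all tested genes, 17.2% were lower and 18.0% higher in that comparison. Rrm2, a subunit of ribonucleotide reductase, was at 624 and 635 CPM in DMSO and 380 and 364 CPM with BRM014 at 6 h, and at 439 and 424 against 242 and 195 CPM at 30 h. Its groups were apart at both times, with log2 fold changes of -0.76 ± 0.10 (edgeR adjusted p = 0.000156) and -0.98 ± 0.11 (adjusted p = 9.87e-06). Tk1, thymidine kinase, fell by 0.80 ± 0.11 at 6 h (edgeR adjusted p = 0.000156) and by 0.87 ± 0.11 at 30 h (adjusted p = 4.5e-05). Cdc6, which loads the replicative helicase, fell by 0.70 ± 0.10 at 6 h (edgeR adjusted p = 0.000162) and by 1.08 ± 0.10 at 30 h (adjusted p = 2.82e-06). Mcm7, a subunit of that helicase, fell by 0.40 ± 0.10 at 6 h (edgeR adjusted p = 0.00842) and by 0.50 ± 0.10 at 30 h (adjusted p = 0.0013). Its 6 h call was lost with ribosomal protein scaling (edgeR adjusted p = 0.0798) and without BRM014 6 h replicate 1 (at an adjusted p of 0.0538) or BRM014 6 h replicate 2 (at an adjusted p of 0.139). The lists share their DMSO samples with the members, so these values are set side by side only. At 30 h, with 25 of the 30 S phase genes lower, 1 of the 14 tested members was lower (Hist1h4i at -0.64), 2 were higher and 11 did not pass. Of all tested genes, 19.1% were lower and 16.8% higher. The 11 ran from -1.18 (Hist1h1a) to 0.86 (Hist1h2br), with Hist1h1c at -0.14 and Hist1h2bc at 0.26. In bulk RNA, fewer cells in S phase and less histone RNA per cell cannot be told apart.

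**Figure D5:**
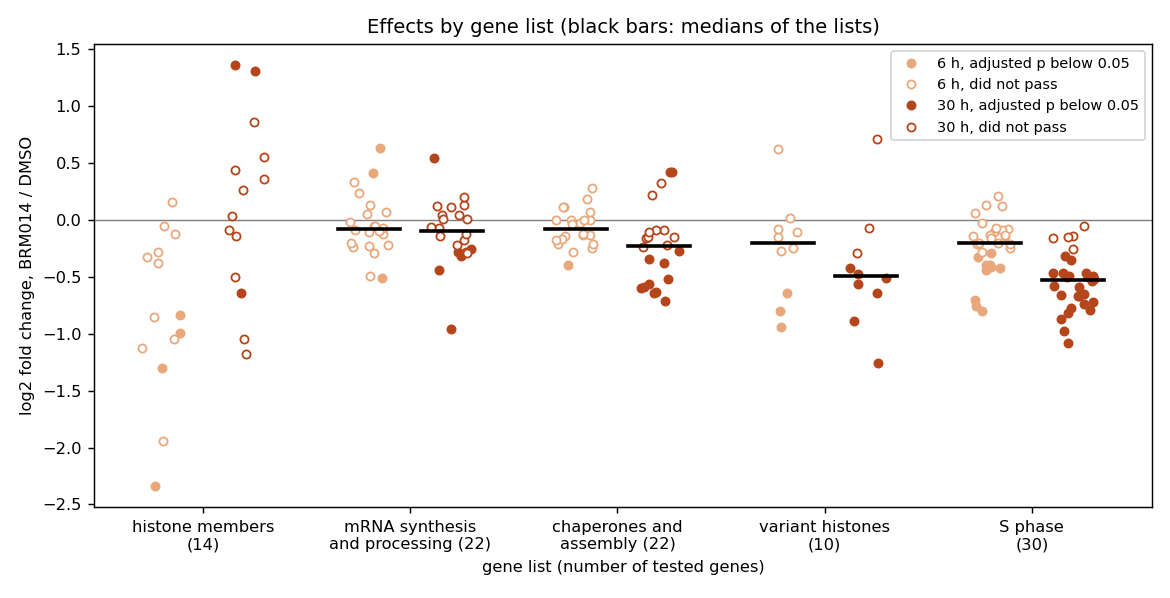
Log2 fold change of BRM014 against DMSO (y axis) at 6 h and 30 h for the tested histone genes and 4 gene lists (x axis), with 1 point per gene, filled for an adjusted p below 0.05, and a black bar at each list's median. The S phase list lies lower at 30 h (median -0.53) than at 6 h (-0.20).

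The cell type was checked on its markers. The epithelial genes Krt8, Krt18 and Cdh1 were abundant. The 6 epithelial markers summed to 4356 to 8003 CPM per library, most of it from Krt8 and Krt18. Epcam and Cldn7 had no counts in any library, and Krt7 had 28 counts in all and was not tested. At 30 h Krt18 rose by 0.79 ± 0.11 (edgeR adjusted p = 7.16e-05) and Krt8 by 0.67 ± 0.10 (adjusted p = 0.000179) on the log2 scale. Cdh1 rose by 0.67 ± 0.13 (edgeR adjusted p = 0.00145). At 6 h the log2 changes of 0.09 (Krt18), -0.10 (Krt8) and 0.12 (Cdh1) did not pass. The 12 markers of other cell types, with Adgre1 and Thy1 at 0 in all libraries, summed to 6.17 to 9.77 CPM in DMSO and 3.52 to 5.84 CPM with BRM014. The fibroblast gene Col1a1 reached the filter's 0.488 CPM only in DMSO libraries, with 0.103 to 0.428 CPM in the BRM014 libraries. It was thus tested only through the groups where it was high, and its calls carry little weight. Its log2 change at 30 h was -2.06 ± 0.49 (edgeR adjusted p = 0.00527). At 6 h its log2 change was -2.11 ± 0.67 (adjusted p = 0.0362), a call lost without DMSO 6 h replicate 2 (-1.30 at an adjusted p of 0.316), BRM014 6 h replicate 1 (-1.71 at an adjusted p of 0.185) or BRM014 6 h replicate 2 (-2.71 at an adjusted p of 0.101). It was lost as well with ribosomal protein scaling (edgeR adjusted p = 0.0589), DESeq2 (adjusted p = 0.0607) and limma-voom (adjusted p = 0.0532). The macrophage gene Cd68, which held most of this sum, had log2 changes of -0.75 ± 0.26 at 6 h (edgeR adjusted p = 0.0527) and -1.12 ± 0.29 at 30 h (adjusted p = 0.00773). Pdgfra, another fibroblast gene and the last of the 3 tested markers, had -0.30 ± 0.52 (edgeR adjusted p = 0.73) and 0.10 ± 0.44 (adjusted p = 0.879). The summed level of these markers was lower in both BRM014 groups, and its part in the histone results was not tested.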

How the data were processed

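The deposited table gives whole-number counts per gene for the 8 libraries; per the submitters' processing notes, Subread, SAMtools 0.1.19 and featureCounts were used with mm9. The strand setting, the annotation and how reads matching several genes were handled are not given in the sources used here, so antisense and near-identical genes cannot be separated. Single reads came from a stranded kit, per the labels' protocols. Depth was 17859693 to 29955366 counts per library.

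Counts were analysed with edgeR 4.0.16 in R 4.3.3: filterByExpr (minimum count 10, minimum total 15), TMM factors, 1 mean per group over all 8 libraries (4 residual degrees of freedom) and the quasi-likelihood test. SE is the log2 fold change divided by the square root of F. CPM are TMM-scaled. Fits were tested on simulated data. Alternatives were RLE factors, library totals, scaling on 76 ribosomal protein genes, no filter and a stricter filter, DESeq2 1.42.0, limma-voom (limma 3.58.1), a fit of the compared groups only, the replicate number as a block, each library left out, and sums without the leading member.

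Members and lists were chosen with earlier results of these data known. Every member that passed the filter was named. From each list, genes called at both times were named, at most 4 by the smallest larger p, or the 2 with the smallest p at each time. Genes outside this rule are marked as chosen after their values were seen, as were the promoters shown, and 2 member promoters had been seen when the motif letters were chosen. Exon lengths and 50-base windows came from GENCODE M21 on GRCm38, and promoters from RefSeq on GRCm38.p6.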

Additional observations from a re-analysis of the deposited data

Results flagged for a closer look

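For 2 members the effect of BRM014 differed between the times by edgeR's test of the difference itself. Hist1h2bc had a difference of 1.25 ± 0.28 on the log2 scale between its 30 h and 6 h effects (edgeR adjusted p = 0.0161), being lower at 6 h and not passing at 30 h. Hist1h1c had a difference of 1.16 ± 0.25 (edgeR adjusted p = 0.0127), with the same pattern. Of all tested genes, 3.89% had a higher effect at 30 h than at 6 h by this test.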

How the results depend on the processing

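The 6 h log2 ratio of the summed members, -1.0, was -0.61 without Hist1h1c and -1.06 to -0.89 with any 1 library left out. The 30 h ratio, -0.08, was -0.34 to 0.25 with 1 library left out, the sign turning without DMSO 30 h replicate 1 (0.25) and BRM014 30 h replicate 2 (0.01), and also with ribosomal protein scaling (0.03) and without Hist1h1c (0.03). Of the tested members, 4 were called at 6 h and 1 to 4 with any 1 library left out. The count was 1 when DMSO 6 h replicate 1 was dropped and 2 for either BRM014 6 h library. The 3 called at 30 h became 0 with DESeq2 and 0 to 2 with 1 library left out, where dropping DMSO 30 h replicate 1 gave 1 and dropping BRM014 30 h replicate 1 gave 0. The 2 called for the difference between the times became 0 to 2, with 0 without DMSO 6 h replicate 1, BRM014 6 h replicate 2 or BRM014 30 h replicate 1, and 1 without BRM014 6 h replicate 1. Between the DMSO groups 0 were called, 2 without the filter and 0 to 3 with 1 library left out, 3 without DMSO 30 h replicate 2. Same-numbered libraries had correlated deviations of 0.122 at 6 h and 0.201 at 30 h, but they share only a number. With the replicate block 4 members were called at 6 h, 3 at 30 h, 2 for the difference and 2, Hist1h1d and Hist1h1c, between the DMSO groups. Of 2114 single-gene values and list counts under 17 alternatives, 93 lost a call, 23 gained one, 28 list counts moved beyond 1.5 times and 0 called values reversed. A further 57 values that passed in neither fit changed sign. Depth limits the 50 untested members, with at most 57 counts each, to their sums.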
